A study of Mus musculus with 18 samples.

Results

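Afp, Alb, Apoa1, Apoa4, Ttr, Amn, Trf, Plg, Serpinc1 and Serpind1 are 10 genes whose transcripts mark the liver bud, the visceral endoderm that lines the yolk sac, or both. They were taken by gene symbol from the deposited expression table, where they are 10 of 55138 genes. The libraries came from mouse embryos whose heads had been dissected away, and the labels do not say how much yolk sac was kept with them. The 18 libraries formed 6 groups of 3: wild type and Del(i9-13) embryos at E9.5, and wild type, Hoxb13hd, Del(i9-13) and Del(i9-13):Hoxb13hd embryos at E10.5. Del(i9-13) is a deletion in the HoxB cluster, Hoxb13hd is a second HoxB allele that the labels name without describing, and Del(i9-13):Hoxb13hd embryos carried both. All mutant embryos were homozygous. The wild type embryos were littermates. The labels do not say whether a library is 1 embryo or a pool, so the p-values reflect only how far the 3 libraries of a group differ, which may be technical. Poly(A) enrichment was used at E9.5 and ribosomal RNA depletion at E10.5, so stage and library type cannot be told apart, and apart from 1 interaction term tests were made within a stage.

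The visceral endoderm is an absorptive and secretory epithelium that takes up maternal protein and secretes serum proteins before the embryo has a working liver, and hepatoblasts of the liver bud later make many of the same proteins. Afp (alpha-fetoprotein), Ttr (transthyretin, a carrier of thyroxine and retinol-binding protein), Trf (the iron carrier transferrin) and Apoa1 (the main protein of high-density lipoprotein) are therefore made in both. Alb (serum albumin) is a product of the hepatoblast, whereas Amn (amnionless, which with cubilin forms an endocytic receptor) and Apoa4 (an apolipoprotein of lipid-absorbing epithelia) are known from the visceral endoderm at these stages. Plg (plasminogen), Serpinc1 (antithrombin) and Serpind1 (heparin cofactor II) are plasma proteins of clotting and fibrinolysis.

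RefSeq promoter windows on build GRCm38.p6, from 250 bases before to 50 bases after the annotated start, were matched for 7 of the 10 genes: Afp, Alb, Apoa1, Apoa4, Amn, Serpinc1 and Serpind1. Alb and Afp are shown because they are neighbours whose transcripts came apart in some of these libraries, and Apoa4 and Amn because they were highest at E10.5 in a library with 2 Alb counts. All are on the plus strand, at chr5:90460620-90460919 for Alb, chr5:90490464-90490763 for Afp, chr9:46240594-46240893 for Apoa4 and chr12:111270846-111271145 for Amn. Capitals mark the letters GTTAAT, an arm of the palindromic binding site of the liver and endoderm factor HNF1, and the TATA box letters TATAAA, both searched on both strands.
Alb: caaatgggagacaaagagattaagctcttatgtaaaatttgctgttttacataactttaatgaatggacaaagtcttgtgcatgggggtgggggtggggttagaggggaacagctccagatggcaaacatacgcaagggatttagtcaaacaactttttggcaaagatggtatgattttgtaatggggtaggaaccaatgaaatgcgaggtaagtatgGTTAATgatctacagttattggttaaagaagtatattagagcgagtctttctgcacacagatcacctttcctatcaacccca
Afp: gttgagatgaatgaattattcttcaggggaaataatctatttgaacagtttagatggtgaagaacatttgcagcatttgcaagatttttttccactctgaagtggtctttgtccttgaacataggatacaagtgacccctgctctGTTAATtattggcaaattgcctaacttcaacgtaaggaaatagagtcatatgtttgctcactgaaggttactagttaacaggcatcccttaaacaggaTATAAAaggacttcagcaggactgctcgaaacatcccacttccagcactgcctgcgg
Apoa4: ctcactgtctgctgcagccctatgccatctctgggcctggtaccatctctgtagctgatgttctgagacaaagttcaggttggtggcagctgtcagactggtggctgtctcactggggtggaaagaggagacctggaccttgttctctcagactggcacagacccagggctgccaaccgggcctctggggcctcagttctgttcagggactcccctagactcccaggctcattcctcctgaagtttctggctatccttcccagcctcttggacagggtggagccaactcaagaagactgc
Amn: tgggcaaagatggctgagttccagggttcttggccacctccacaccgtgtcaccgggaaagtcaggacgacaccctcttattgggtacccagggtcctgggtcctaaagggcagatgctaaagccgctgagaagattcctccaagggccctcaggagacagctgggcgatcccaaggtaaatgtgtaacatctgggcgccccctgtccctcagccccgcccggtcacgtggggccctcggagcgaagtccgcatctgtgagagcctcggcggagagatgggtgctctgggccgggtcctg

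GTTAAT began 32 bases before the start in Alb and 105 bases before it in Afp, on the strand of the gene in both, and TATAAA began 7 bases before the RefSeq start in Afp. The matches do not overlap. The other 5 windows held neither string. GTTAAT was present in 7.10% and TATAAA in 13.6% of the 32851 RefSeq promoter windows of this length. The G and C content was 40% in both the Alb and the Afp window, against 57.3% for Apoa4 and 62.3% for Amn, and the Amn window held 15 CpG dinucleotides against 3 each in Alb and Afp and 1 in Apoa4. Distances are to the RefSeq starts used for the windows, which can differ from the GENCODE starts given below. For Alb and Afp the GENCODE start lies downstream of the RefSeq start, so the matches lie further upstream of it. For Apoa4 it lies upstream, so most of that window is within the GENCODE gene. A match is a description of the sequence and not a site of binding.

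In GENCODE M21 coordinates on mm10, Alb (ENSMUSG00000029368) occupies chr5:90460897-90476602 and Afp (ENSMUSG00000054932) chr5:90490737-90508907, 14.1 kb downstream on the same strand. Apoa1 (ENSMUSG00000032083, chr9:46228580-46230466) and Apoa4 (ENSMUSG00000032080, chr9:46240696-46243459) lie 10.2 kb apart. Amn (ENSMUSG00000021278) lies at chr12:111271095-111276426, Trf (ENSMUSG00000032554) at chr9:103204001-103230444 on the minus strand, and Plg (ENSMUSG00000059481) at chr17:12378608-12419385. Serpinc1 (ENSMUSG00000026715) lies at chr1:160978585-161005863, Serpind1 (ENSMUSG00000022766) at chr16:17331371-17343575 and Ttr (ENSMUSG00000061808) at chr18:20665280-20674321. All 10 are protein-coding, and values below are for whole genes.

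Libraries held 29829820 to 35934843 gene counts at E9.5 and 19333138 to 25722951 at E10.5. Hoxb13 counts followed the deletion label, with 1 to 4 in E9.5 wild type against 1299 to 1421 in E9.5 Del(i9-13), and at E10.5 with 1 to 25 in wild type and 0 to 2 in Hoxb13hd against 130 to 288 in Del(i9-13) and 228 to 307 in Del(i9-13):Hoxb13hd. Pairs of libraries of 1 group differed by more than sampling noise in every group, with chi-square values 9.71 to 50.8 times their degrees of freedom. Markers of embryonic blood were present in all libraries, with a summed FPKM of the 7 genes of 7221 to 8219 in the E9.5 and 7919 to 13810 in the E10.5 libraries.

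2 of the 12 E10.5 libraries stood apart in the genes described here. Del(i9-13) replicate 1 and Hoxb13hd replicate 2 held 2 Alb counts each, for which counting error alone allows 0.242 to 7.22 (exact 95% Poisson interval), while the other 10 held 96 to 568. The pair differed in the other genes. Del(i9-13) replicate 1 had the highest level of Afp, Apoa1, Apoa4, Ttr, Amn, Trf and Plg of the 12, and the 10 genes together reached 537 FPKM. Hoxb13hd replicate 2 had the lowest level of Afp, Ttr, Trf, Plg, Serpinc1 and Serpind1 of the 12, and its 10 genes together reached 9.69 FPKM. The fitted E10.5 comparisons below are therefore given with all libraries and, as an alternative chosen after seeing the data, without both of these. Because these 2 were picked by their Alb counts, leaving them out narrows the spread of Alb by construction. A pass of Alb in that alternative is thus not an independent result. The same limit applies to other genes that were extreme in either library, among them Plg, Serpinc1 and Serpind1.

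The serum carriers came first in level. Afp was the most abundant of the 10 genes in every library, with 44.5 to 57.2% of their summed FPKM at E9.5 and 50.5 to 73.9% at E10.5. At E9.5 its level was 4.79, 6.46 and 27.6 FPKM in wild type replicates 1 to 3 and 24.0, 59.3 and 199 FPKM in Del(i9-13). The lowest Del(i9-13) library was thus under the highest wild type library. At E10.5 Afp measured 134, 58.8 and 48.3 FPKM in wild type and 320, 94.5 and 83.0 FPKM in Del(i9-13). It measured 77.4, 95.8 and 72.0 FPKM in Del(i9-13):Hoxb13hd and 28.9, 4.89 and 21.2 FPKM in Hoxb13hd. The 3 Hoxb13hd libraries were the lowest 3 of the 12. By mean Afp level the E10.5 groups ran from Del(i9-13) (166 ± 134, SD, n = 3) through Del(i9-13):Hoxb13hd (81.7 ± 12.5) and wild type (80.4 ± 46.9) to Hoxb13hd (18.3 ± 12.2), and of these neighbours only wild type and Hoxb13hd had no overlapping libraries. In bulk libraries such as these, fewer cells of a type and less RNA per cell cannot be told apart.

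**Figure D1:**
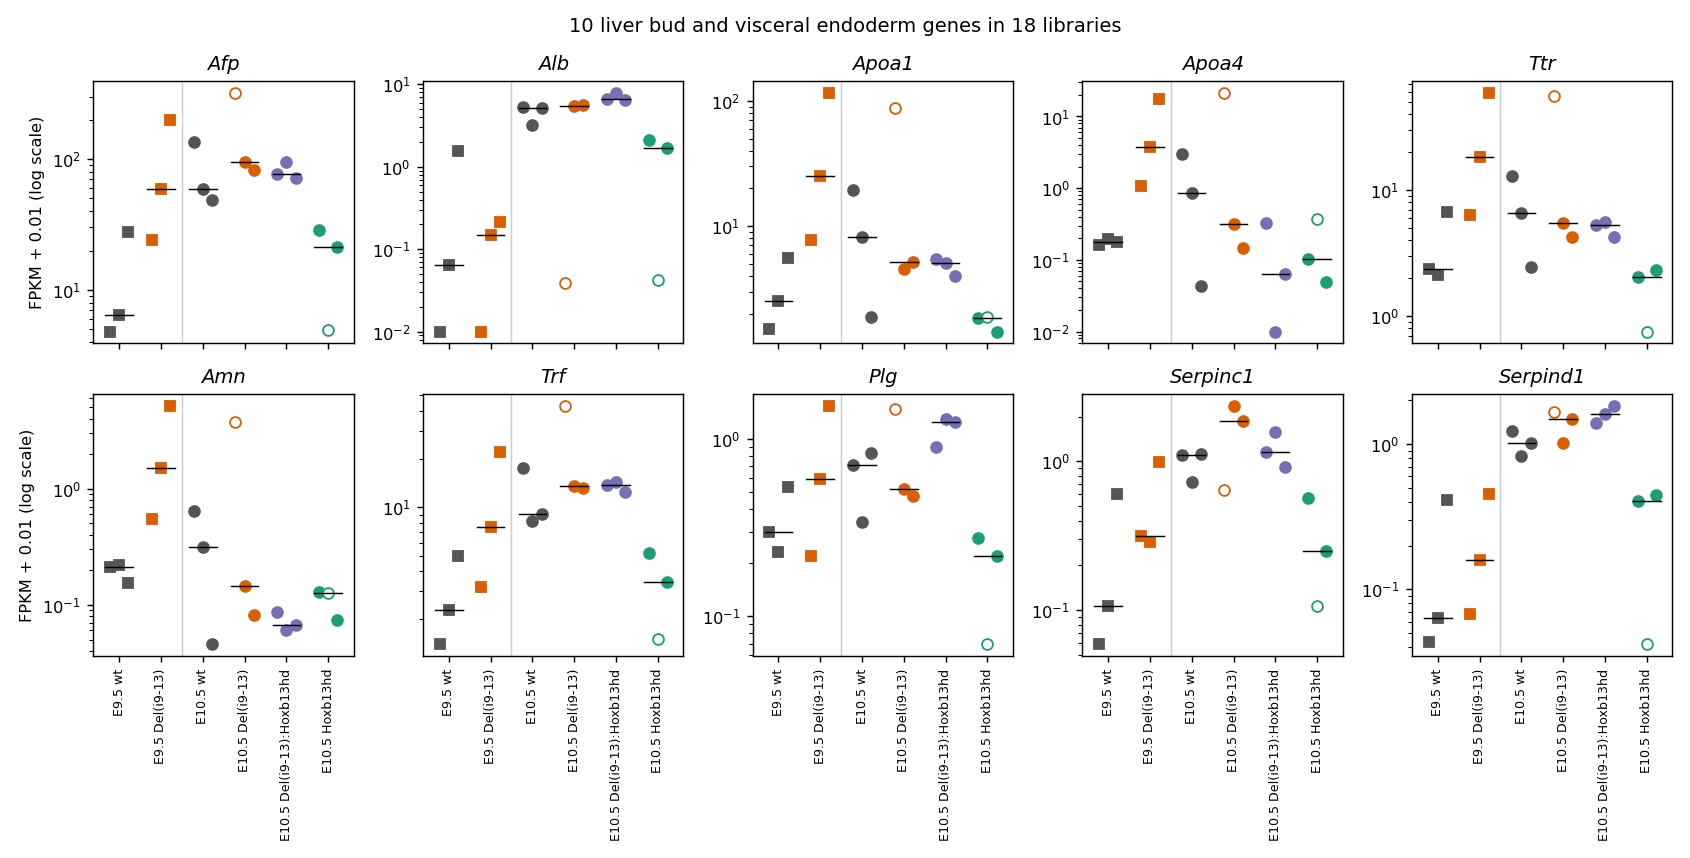
FPKM + 0.01 of each of the 10 genes (log scale) in the 3 libraries of each of the 6 groups, squares for E9.5 and circles for E10.5, with the group median as a bar and open circles for the 2 E10.5 libraries with 2 Alb counts. The open circle of Del(i9-13) is the highest E10.5 point for Afp, Apoa1, Apoa4, Ttr, Amn, Trf and Plg and the lowest for Alb, while the open circle of Hoxb13hd is the lowest E10.5 point for Afp, Ttr, Trf, Plg, Serpinc1 and Serpind1.

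Alb did not follow its neighbour Afp in every library. Over the 12 E10.5 libraries Pearson's r of their log2 CPM was 0.26, against 0.85 without the 2 libraries with 2 Alb counts. At E9.5 Alb was listed at 0 in wild type replicate 1 and Del(i9-13) replicate 1. It measured 0.0542 and 1.53 FPKM in wild type replicates 2 and 3 and 0.138 and 0.204 FPKM in Del(i9-13) replicates 2 and 3. The E9.5 levels rest on 0, 4 and 118 counts in wild type and 0, 11 and 18 counts in Del(i9-13), so 1 wild type library held most of the E9.5 Alb. At E10.5 Alb measured 5.37, 3.16 and 5.19 FPKM in wild type, 0.0284, 5.39 and 5.58 FPKM in Del(i9-13), 6.69, 7.85 and 6.53 FPKM in Del(i9-13):Hoxb13hd and 2.08, 0.0322 and 1.68 FPKM in Hoxb13hd. The Del(i9-13):Hoxb13hd libraries were the 3 highest of the 12. The remaining Hoxb13hd libraries lay below every other E10.5 library with more than 2 counts. The order of the group means was Del(i9-13):Hoxb13hd, wild type, Del(i9-13) and Hoxb13hd. Of neighbours in this order only the first and second had no overlapping libraries. Away from neighbours, Hoxb13hd also lay below wild type and below Del(i9-13):Hoxb13hd without overlap.

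The levels relative to Afp in the same library describe this further, though the 2 unusual libraries were set apart by their Alb counts, so their low ratio of Alb restates that choice. There were 3.998 to 10.8 FPKM of Alb per 100 FPKM of Afp in 10 libraries, against 0.00888 in Del(i9-13) replicate 1 and 0.657 in Hoxb13hd replicate 2. For Apoa4 there were 6.64 and 7.37 FPKM per 100 FPKM of Afp in those 2 libraries against 0 to 2.199 in the other 10. In Hoxb13hd replicate 2 that ratio stands on 0.361 FPKM of Apoa4 (20 counts) over the lowest Afp level of the 12, 4.89 FPKM. At E9.5 the ratio of Alb was 0, 0.840 and 5.57 in wild type and 0, 0.232 and 0.102 in Del(i9-13). The ratio of Apoa4 was 3.15, 2.82 and 0.602 in wild type and 4.43, 6.32 and 8.77 in Del(i9-13). E9.5 wild type replicate 3 lay within the range of those 10 E10.5 libraries in both ratios, and the 2 unusual E10.5 libraries lay within the range of E9.5 Del(i9-13) in the ratio of Apoa4.

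**Figure D2:**
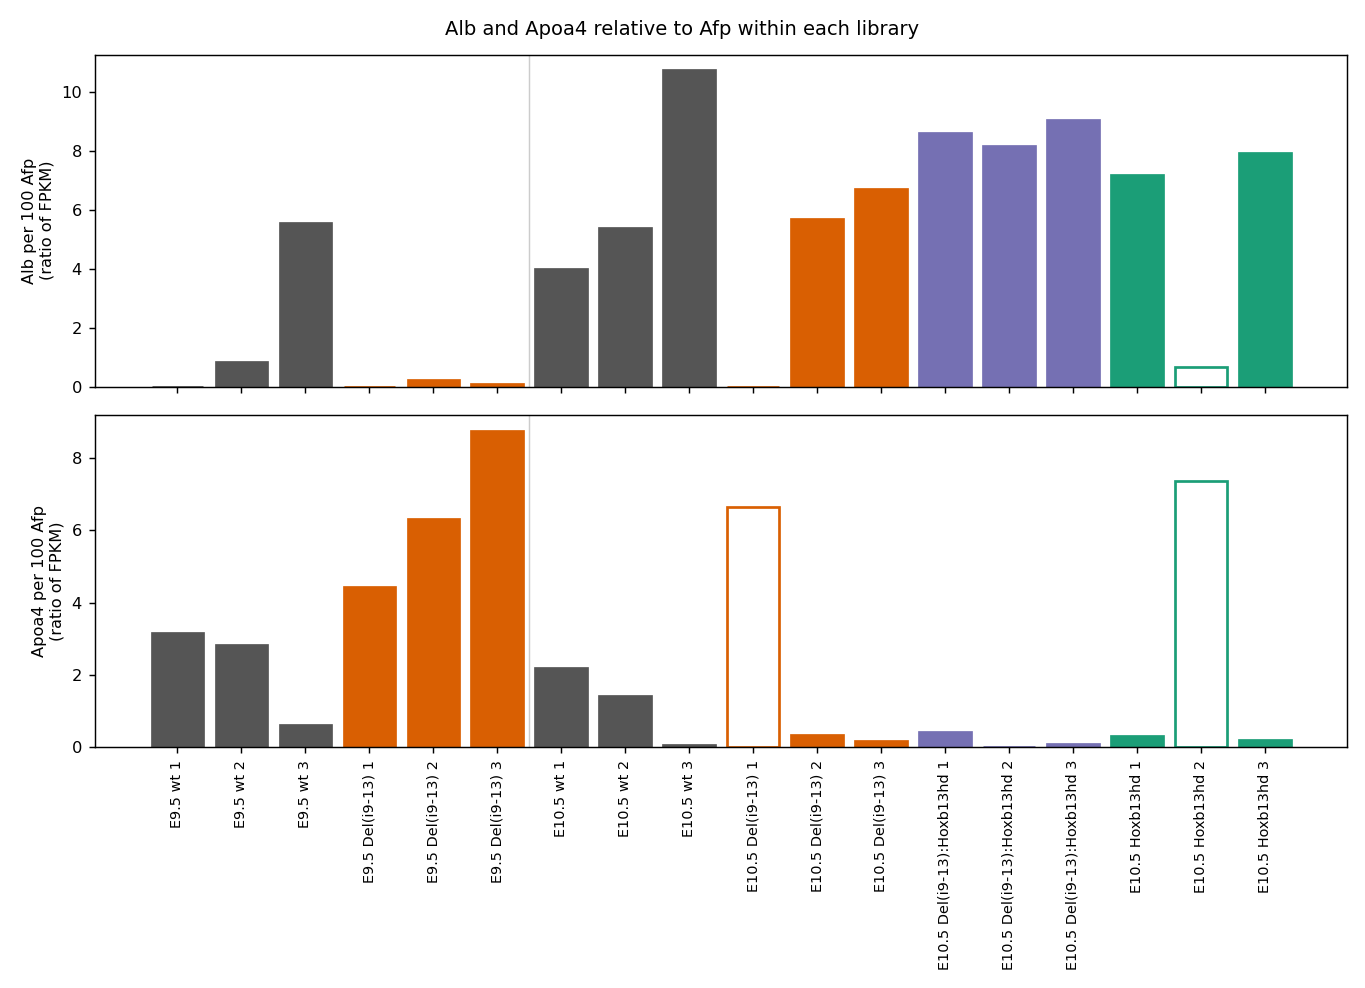
Alb (top) and Apoa4 (bottom) in FPKM per 100 FPKM of Afp in each of the 18 libraries, one bar per library, with open bars for the 2 E10.5 libraries with 2 Alb counts. The open bars are the lowest at E10.5 for Alb, at 0.00888 and 0.657, and the highest for Apoa4, at 6.64 and 7.37.

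Transthyretin and transferrin followed Afp more closely. Ttr at E9.5 measured 2.37, 2.09 and 6.77 FPKM in wild type and 6.32, 18.4 and 59.2 FPKM in Del(i9-13), overlapping at 1 library of each group. At E10.5 it was at 56.4 FPKM in Del(i9-13) replicate 1 and at 0.745 to 13.0 FPKM in the other 11 libraries. Trf at E9.5 ranged from 1.39 to 4.94 FPKM in wild type and from 3.18 to 22.02 FPKM in Del(i9-13). At E10.5 Trf was at 43.1 FPKM in Del(i9-13) replicate 1, at 12.5 to 14.3 FPKM in the 3 Del(i9-13):Hoxb13hd libraries and at 5.18, 1.49 and 3.42 FPKM in Hoxb13hd. For both genes every Hoxb13hd library lay under every wild type library.

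The apolipoproteins and Amn were the members that set E9.5 Del(i9-13) apart from E9.5 wild type. Apoa4 measured 0.151, 0.182 and 0.166 FPKM in E9.5 wild type and 1.06, 3.74 and 17.5 FPKM in E9.5 Del(i9-13), resting on 11 or 12 counts in each wild type library and on 81, 243 and 1233 counts in Del(i9-13). Amn measured 0.201, 0.211 and 0.145 FPKM in E9.5 wild type and 0.532, 1.496 and 5.15 FPKM in E9.5 Del(i9-13). Apoa1 measured 1.5, 2.51 and 5.56 FPKM in wild type and 7.66, 25.2 and 116 FPKM in Del(i9-13). For these 3 genes no Del(i9-13) library overlapped the wild type libraries, and within Del(i9-13) replicate 3 was 9.68 to 16.5 times replicate 1. Apoa1 also spread within wild type, whereas Apoa4 and Amn were close there.

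At E10.5 the 3 genes were high in few libraries. Amn measured 0.626, 0.303 and 0.0357 FPKM in wild type, 3.76, 0.134 and 0.0723 FPKM in Del(i9-13), 0.0758, 0.0510 and 0.0568 FPKM in Del(i9-13):Hoxb13hd and 0.117, 0.115 and 0.0635 FPKM in Hoxb13hd. Del(i9-13) replicate 1 had 228 Amn counts, wild type replicates 1 and 2 had 35 and 19, and the other 9 libraries had 3 to 8. Apoa4 measured 2.95, 0.836 and 0.0334 FPKM in wild type, 21.3, 0.306 and 0.136 FPKM in Del(i9-13), 0.320, 0 and 0.0532 FPKM in Del(i9-13):Hoxb13hd and 0.0917, 0.361 and 0.0397 FPKM in Hoxb13hd. The ranking was the same at its top, with Del(i9-13) replicate 1 followed by wild type replicates 1 and 2. Apoa1 measured 19.3, 8.21 and 1.87 FPKM in wild type, 87.8, 4.54 and 5.11 FPKM in Del(i9-13), 5.42, 5.03 and 4.01 FPKM in Del(i9-13):Hoxb13hd and 1.83, 1.87 and 1.43 FPKM in Hoxb13hd. No neighbouring groups in the order of Amn or Apoa4 means were free of overlap at E10.5, while every Apoa1 value of Del(i9-13):Hoxb13hd exceeded those of Hoxb13hd.

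**Figure D3:**
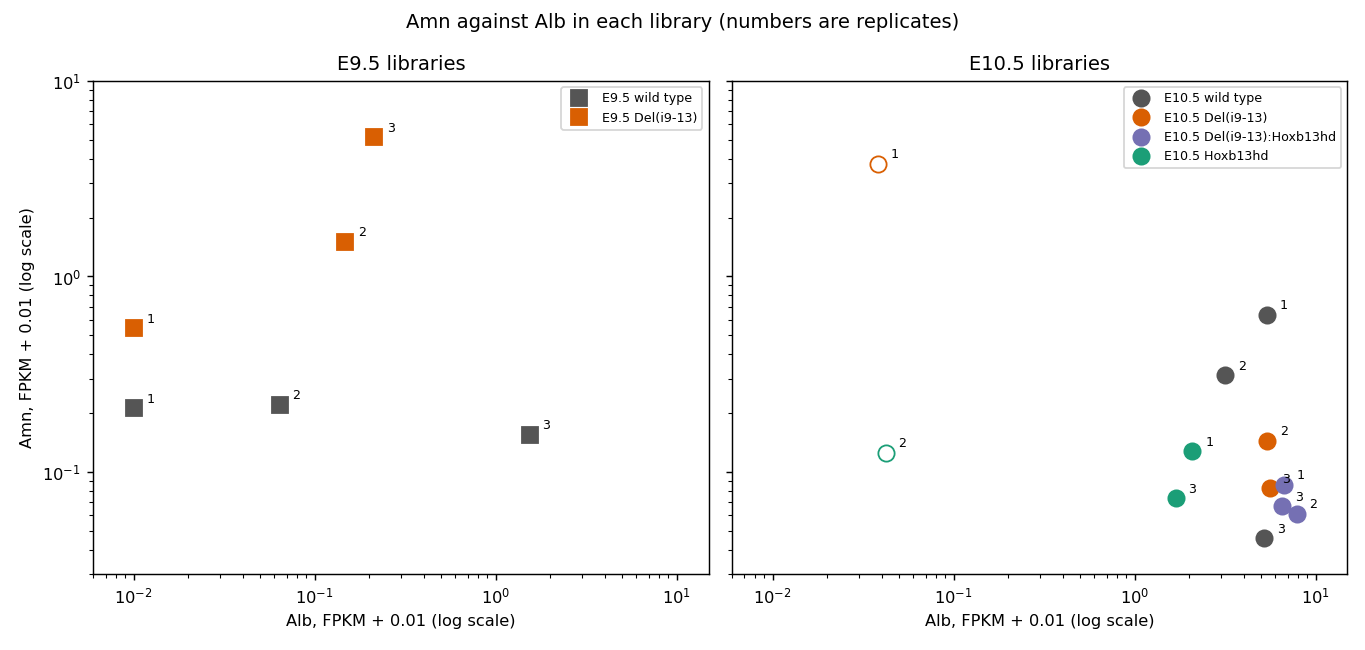
Amn against Alb in each library, both as FPKM + 0.01 on log scales, with E9.5 libraries on the left and E10.5 libraries on the right, one point per library numbered by replicate. Del(i9-13) replicate 1 at E10.5 (open orange circle) combines the highest E10.5 Amn level, 3.76 FPKM, with 0.0284 FPKM of Alb, and the E9.5 Del(i9-13) libraries rise in Amn with no more than 0.204 FPKM of Alb.

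The 3 plasma proteins of clotting and fibrinolysis were low at both stages. Plg measured 0.290, 0.220 and 0.527 FPKM in E9.5 wild type and 0.207, 0.588 and 1.53 FPKM in E9.5 Del(i9-13). At E10.5 Plg measured 0.700, 0.330 and 0.825 FPKM in wild type, 1.47, 0.509 and 0.469 FPKM in Del(i9-13), 0.889, 1.28 and 1.24 FPKM in Del(i9-13):Hoxb13hd and 0.266, 0.0593 and 0.209 FPKM in Hoxb13hd. The Hoxb13hd libraries, with 22, 5 and 16 counts, were the lowest 3 of the 12. Serpind1 measured 1.21, 0.811 and 1.00 FPKM in E10.5 wild type, 1.66, 1.00 and 1.47 FPKM in Del(i9-13), 1.40, 1.60 and 1.82 FPKM in Del(i9-13):Hoxb13hd and 0.397, 0.0319 and 0.439 FPKM in Hoxb13hd. It did not exceed 0.441 FPKM in any E9.5 library, with 3 to 39 counts. Serpinc1 measured 1.10, 0.713 and 1.10 FPKM in E10.5 wild type, 0.637, 2.36 and 1.87 FPKM in Del(i9-13), 1.14, 1.56 and 0.906 FPKM in Del(i9-13):Hoxb13hd and 0.557, 0.0974 and 0.240 FPKM in Hoxb13hd. It was the one member besides Alb for which Del(i9-13) replicate 1 was the lowest library of its group.

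For the deletion at E9.5, 9 of the 10 genes were fitted higher in Del(i9-13) than in wild type, with a median log2 fold change of 2.47 against 0.0018 over the 16041 genes tested. The sizes were 5.48 (SE 1.47) for Apoa4, 3.997 (SE 1.36) for Apoa1, 3.44 (SE 0.98) for Amn, 2.92 (SE 1.11) for Ttr, 2.89 (SE 1.24) for Afp and 2.06 (SE 0.95) for Trf on the log2 scale. They were 1.21 (SE 0.76) for Plg, 0.47 (SE 1.13) for Serpind1, 0.45 (SE 0.63) for Serpinc1 and −2.11 (SE 1.96) for Alb. By edgeR's quasi-likelihood test with Benjamini-Hochberg adjustment over all genes, 0 of 10 passed an adjusted p of 0.05, the smallest being 0.32 for Amn, where 0.362% of all genes passed. At an unadjusted p under 0.05 there were 3 of 10, against 11.7% of all genes. DESeq2 called 3, namely Apoa4, Amn and Apoa1, where it called 2.05% of all genes, and limma on log2(FPKM + 1) called 0. Limma did not test Alb, Amn, Plg, Serpinc1 and Serpind1, which did not reach 1 FPKM in 3 E9.5 libraries. In the scaled counts of Apoa4, Amn and Apoa1 the Del(i9-13) libraries all lay above the wild type libraries, a separation that 9.06% of genes showed in that direction. The fitted direction of Alb rests on wild type replicate 3, without which it was 2.23. Those of Serpinc1 and Serpind1 turned without Del(i9-13) replicate 3, to −0.33 and −0.72. Serpind1 also turned without wild type replicate 1, to −0.047.

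For the deletion at E10.5, 9 of the 10 genes were again fitted higher in Del(i9-13), with a median log2 fold change of 1.05, against 0.0020 over 17202 genes. Sizes ran from 2.54 (SE 1.73) for Apoa4 and 1.96 (SE 1.20) for Amn to 0.42 (SE 0.47) for Plg, and Alb was at −0.34 (SE 1.08). None of the 10 passed the edgeR test, where 0.488% of genes did, 1 had an unadjusted p under 0.05 (Serpinc1), about the 9.13% of all genes that did, and DESeq2 and limma on log2(FPKM + 1) called 0. Limma did not test Amn and Apoa4 at E10.5, which were under its filter. None of the 10 had groups free of overlap, which 13% of genes had in either direction. Without both unusual libraries, where 262 genes (1.5%) were called in place of 84, the fitted values turned to −2.51 for Apoa4, −1.53 for Amn, −0.98 for Apoa1, −0.58 for Ttr, −0.31 for Plg and 0.25 for Alb. The values of Afp, Trf and Serpind1 came down to 0.16, 0.24 and 0.28. Serpinc1 alone passed, at 1.07 (adjusted p = 0.026, edgeR), and it was lowest at E10.5 in Hoxb13hd replicate 2, which was left out. The higher fitted levels of 5 of the 9 genes thus rested on Del(i9-13) replicate 1, and leaving out that library by itself turned the same 6 values among the 10.

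For the effect of Hoxb13hd at E10.5, all 10 genes were fitted lower than in wild type, with a median log2 fold change of −1.81 against 0.0031 over all genes. The values were −1.79 (SE 0.48) for Serpind1, −1.77 (SE 0.55) for Plg, −1.35 (SE 0.40) for Serpinc1, −1.79 (SE 0.61) for Trf, −2.10 (SE 0.77) for Afp and −1.82 (SE 1.177) for Alb. In edgeR's test 0 of 10 passed, with adjusted p from 0.067 for Serpind1 to 0.60 for Amn, where 3.01% of genes passed. At an unadjusted p under 0.05 there were 5 (Serpind1, Serpinc1, Plg, Trf and Afp), against 20.4% of all genes. DESeq2 called the same 5, where 8.35% of genes passed, and limma on log2(FPKM + 1) called Serpind1, where 2.23% did. In 7 of the 10, all but Apoa1, Apoa4 and Amn, the 3 Hoxb13hd libraries lay below the 3 wild type libraries, against 12.6% of all genes. Without both unusual libraries Alb, at −1.23 (adjusted p = 0.018, edgeR), and Serpind1, at −1.24 (adjusted p = 0.036), passed, among 353 genes (2.03%) called in place of 517. Those libraries were chosen by their Alb counts, so the pass of Alb is not an independent result. Nor is that of Serpind1, which was lowest at E10.5 in Hoxb13hd replicate 2.

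Del(i9-13):Hoxb13hd embryos were compared with wild type too. Against wild type their 10 genes had a median log2 fold change of 0.09, against 0.0013 over all genes, with 6 fitted higher and 4 lower. None passed in edgeR, DESeq2 or limma on log2(FPKM + 1), where 0.401% of genes passed in edgeR, and none had an unadjusted p under 0.05, which 12.5% of all genes had. Without both unusual libraries 0 of the 10 passed too, where 165 genes were called in place of 69. Alb, Plg, Serpinc1 and Serpind1 separated upward from wild type in the scaled counts, at log2 fold changes of 0.59 (SE 1.07), 0.89 (SE 0.46), 0.59 (SE 0.35) and 0.62 (SE 0.41), a separation that 11.2% of genes showed. By FPKM Serpinc1 overlapped, with 0.906 in Del(i9-13):Hoxb13hd replicate 3 against 1.10 in wild type replicates 1 and 3. Apoa4 and Amn were fitted at −3.38 (SE 2.43) and −2.15 (SE 1.62), against wild type groups whose own 3 libraries ran from 2 to 162 Apoa4 counts and from 3 to 35 Amn counts.

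Against Hoxb13hd, which carries the same second allele without the deletion, 3 of the 10 genes rose in Del(i9-13):Hoxb13hd by edgeR's quasi-likelihood test, where 0.959% of all genes passed. The 3 were Plg (log2 2.67, SE 0.53, adjusted p = 0.043), Serpind1 (2.42, SE 0.47, adjusted p = 0.038) and Serpinc1 (1.94, SE 0.40, adjusted p = 0.040). At an unadjusted p under 0.05 in the same test there were 5 of 10, these and Trf and Afp, against 15.2% of all genes. Trf at 1.96 (SE 0.61), Afp at 2.10 (SE 0.77) and Alb at 2.41 (SE 1.178) were fitted with wider errors and did not pass in edgeR. DESeq2 called 4 of the 10, adding Trf (adjusted p = 0.030), where 3.98% of genes passed, and limma on log2(FPKM + 1) called 2, Plg and Serpind1, where 1.79% did. In 8 of the 10, all but Apoa4 and Amn, the 3 libraries of Del(i9-13):Hoxb13hd lay above those of Hoxb13hd, against 12.2% of all genes. The median over the 10 was 1.95, against −0.01 over all genes. The 3 calls were lost together without any 1 of the 3 Del(i9-13):Hoxb13hd libraries or Hoxb13hd replicate 3, and 1 of them, Serpind1, was kept without Hoxb13hd replicate 2. Without both unusual libraries, where 75 genes (0.431%) were called in place of 165, 4 of the 10 passed, namely Alb at 1.83 (adjusted p = 0.0020), Serpind1 at 1.88 (adjusted p = 0.0060), Plg at 2.25 (adjusted p = 0.0097) and Serpinc1 at 1.55 (adjusted p = 0.015). Alb, by whose counts those libraries were chosen, is not an independent pass. Nor are Serpind1, Plg and Serpinc1, which were lowest at E10.5 in Hoxb13hd replicate 2. This comparison and that of Hoxb13hd with wild type share the Hoxb13hd libraries.

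**Figure D4:**
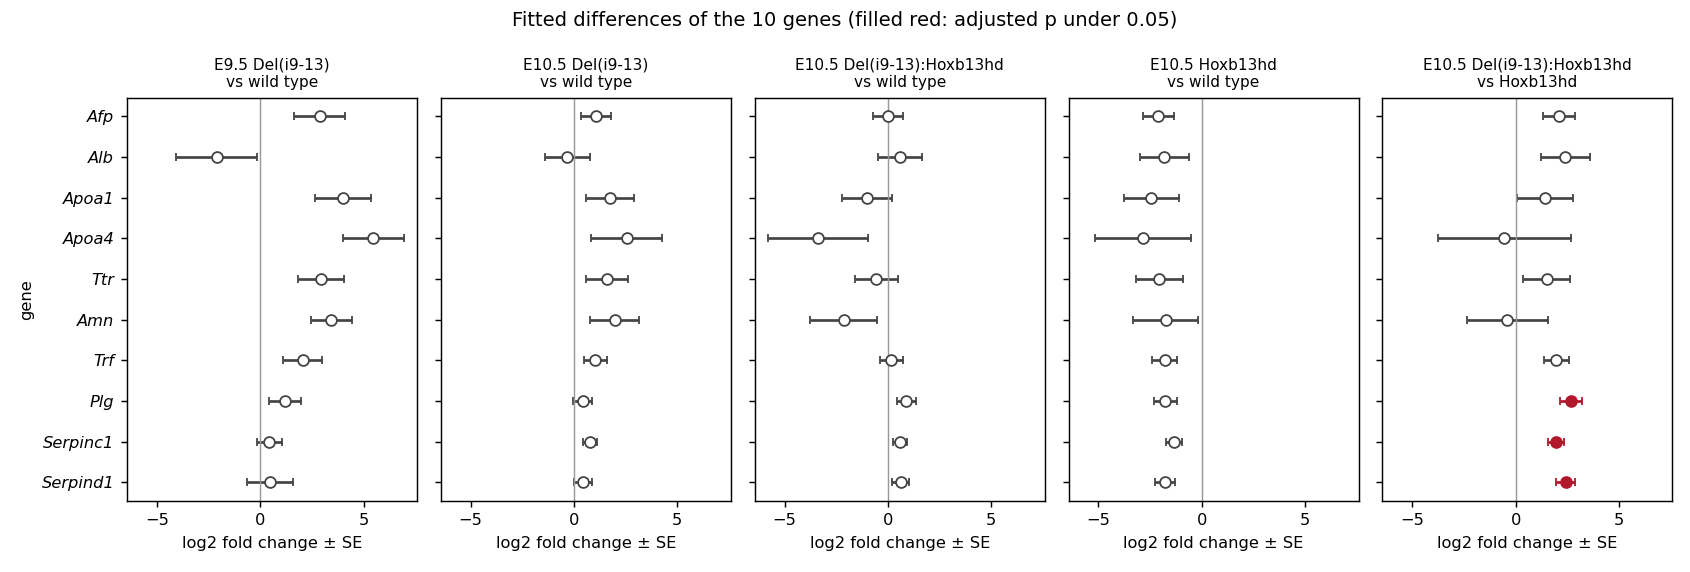
Fitted log2 fold change ± SE of the 10 genes in the 5 comparisons of 2 groups, with filled red points for an adjusted p under 0.05 in edgeR's test. The 3 filled points are Plg, Serpinc1 and Serpind1 in Del(i9-13):Hoxb13hd against Hoxb13hd, and the widest error of all panels is that of Apoa4 in the same comparison (SE 3.21).

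The differences between these effects were tested directly. Whether the deletion acted differently at E9.5 and E10.5 was asked by an interaction term, and 0 of the 10 passed in edgeR (0.0453% of genes did), 0 had an unadjusted p under 0.05 (6.86% of genes did), and DESeq2 and limma on log2(FPKM + 1) called 0. Library type changes with the stage in this test, so the 2 cannot be told apart there either. It also gave 0 without E10.5 Del(i9-13) replicate 1. The interaction of the deletion with Hoxb13hd gave 0 of 10 in edgeR (0.523% of genes passed). There 3 had an unadjusted p under 0.05, against 11.7% of all genes, namely Plg at 2.25 (SE 0.71), Serpind1 at 1.98 (SE 0.63) and Serpinc1 at 1.17 (SE 0.53) on the log2 scale, and DESeq2 called Serpind1 (1.73% of genes passed) and limma on log2(FPKM + 1) called 0. Without both unusual libraries, Plg at 2.56 and Alb at 1.58 passed in edgeR, each with an adjusted p of 0.029, where 0.563% of genes passed. The pass of Alb again depends on libraries chosen by its own counts. That of Plg depends on libraries in which it was highest and lowest at E10.5. Plg alone passed without Del(i9-13) replicate 1.

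The errors above come from the spread between libraries of the same group. The biological coefficient of variation of the 10 genes, the spread between libraries beyond counting, ran from 0.507 (Serpinc1) to 2.00 (Alb) at E9.5, where the median gene had 0.119. At E10.5 it ran from 0.279 (Serpinc1) to 1.59 (Apoa4), where the median gene had 0.122. At E9.5 their percentiles among all genes tested ran from 98.1 (Serpinc1) to 99.99 (Alb), and at E10.5 from 90.9 (Serpinc1) to 99.9 (Apoa4).

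Marker genes outside the 10 were looked at in the same libraries, in lists chosen with earlier results of these data known. Where they moved with the 10 genes, that is therefore a description and not separate support. A list of 13 yolk sac endoderm markers holds Amn, Apoa4 and 11 others, among them Cubn (cubilin, the partner of Amn), S100g and Rhox5. E9.5 Del(i9-13) replicate 3 was the highest of the 6 E9.5 libraries in all 11 of the others, and E10.5 Del(i9-13) replicate 1 the highest of the 12 E10.5 libraries in all 11. Cubn measured 0.243, 0.270 and 0.314 FPKM in E9.5 wild type and 0.651, 0.859 and 10.3 FPKM in E9.5 Del(i9-13). At E10.5 it measured 13.5 FPKM in Del(i9-13) replicate 1, 2.52 and 1.06 FPKM in wild type replicates 1 and 2 and no more than 0.550 FPKM in the other 9. The summed list ran from 7.65 to 10.3 FPKM in E9.5 wild type, from 14.1 to 123 in E9.5 Del(i9-13), and at E10.5 from 5.21 to 23.9 outside Del(i9-13) replicate 1, which had 107.

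A list of 17 liver bud markers holds Alb and 16 others, of which Hoxb13hd replicate 2 was the lowest of the 12 E10.5 libraries in 11. Itih2, a liver secreted protein, measured 7.11, 5.03 and 6.50 FPKM in E10.5 wild type, 0.793, 9.81 and 9.51 FPKM in Del(i9-13), 8.001, 10.3 and 8.75 FPKM in Del(i9-13):Hoxb13hd and 3.81, 0.169 and 2.64 FPKM in Hoxb13hd. It was lowest in the same 2 libraries as Alb, but of the 16 genes Del(i9-13) replicate 1 was the lowest E10.5 library in 1 and the highest in 4 (F2, Kng1, Tbx3 and Foxa3). The early transcription factors of the list varied less: Hhex ran from 0.899 to 1.83 FPKM and Prox1 from 1.03 to 1.98 FPKM over the 12 libraries. Ahsg (fetuin-A, a plasma protein of the liver) did not exceed 0.165 FPKM in any library, and Mat1a did not exceed 0.0412 FPKM. The summed list was 24.8 FPKM in Del(i9-13) replicate 1, within the wild type range of 24.4 to 33.9, and 10.4 FPKM in Hoxb13hd replicate 2.

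Of the list members with enough counts to be tested, 0 of 14 liver bud, 0 of 13 yolk sac endoderm and 0 of 15 shared markers passed edgeR's test in the E9.5 comparison, with 1, 6 and 4 at an unadjusted p under 0.05, which 11.7% of all genes had. The lists' median log2 fold changes there were 0.03, 2.71 and 2.92, against 0.0018 over all genes, and 13 of 13 yolk sac and 15 of 15 shared markers were fitted higher against 7 of 14 liver bud markers. In Hoxb13hd against wild type 0 markers of these lists passed, with 2, 0 and 8 at an unadjusted p under 0.05 (20.4% of all genes). The medians were −0.53, −1.13 and −1.79, against 0.0031 over all genes. In Del(i9-13):Hoxb13hd against Hoxb13hd 0 of 15 liver bud, 0 of 13 yolk sac and 0 of 15 shared markers passed, with 5, 0 and 8 at an unadjusted p under 0.05 (15.2% of all genes) and medians of 0.75, 0.04 and 1.67, against −0.01 over all genes. Without both unusual libraries 2 liver bud (Alb and Itih2), 0 yolk sac and 3 shared markers (Apoe, Apoa2 and Fgg) passed, where 0.431% of all genes did. At an unadjusted p under 0.05 there were 7, 1 and 11, against 13.25% of all genes, and the medians were 0.67, 0.33 and 1.36. Alb, by whose counts those libraries were chosen, is not an independent pass there. Nor are Itih2, lowest at E10.5 in the same 2 libraries, and Apoe, Apoa2 and Fgg, lowest in Hoxb13hd replicate 2. The shared list counts Afp, Ttr, Apoa1 and Trf, the liver bud list Alb, and the yolk sac list Amn and Apoa4, so these counts are not separate from those above. The lists were also chosen with earlier results of these data known.

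**Figure D5:**
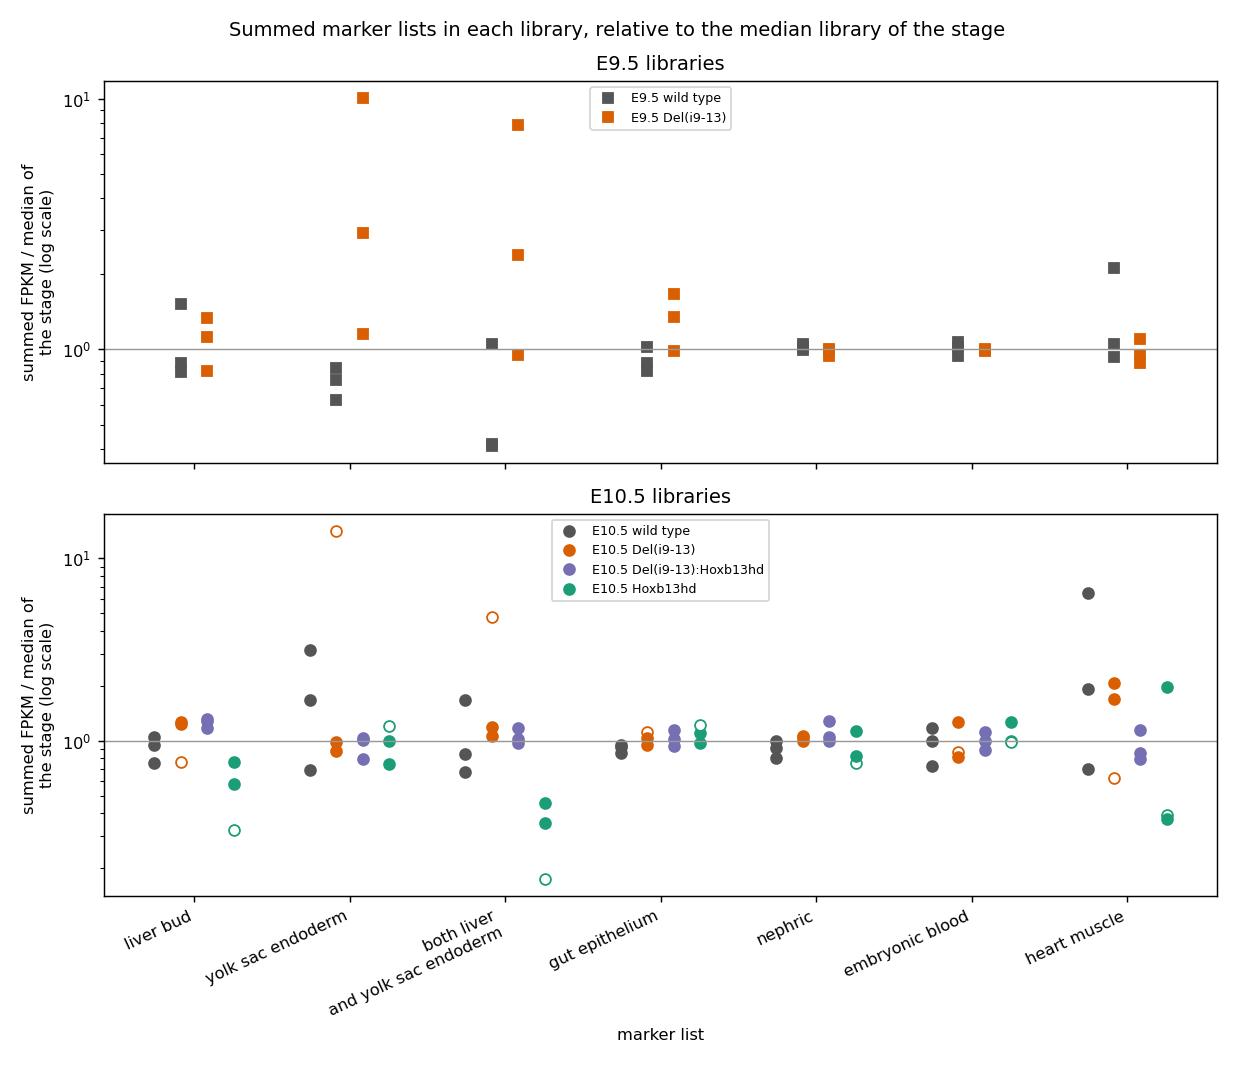
Summed FPKM of 7 marker lists in each library divided by the median library of the stage (log scale), E9.5 above and E10.5 below, with open circles for the 2 E10.5 libraries with 2 Alb counts. The yolk sac list and the list shared by liver and yolk sac spread most, the yolk sac list up to 123 FPKM in an E9.5 and 107 FPKM in an E10.5 Del(i9-13) library, heart muscle spreads at E10.5, and the blood and nephric lists stay narrow.

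Heart muscle, an organ next to the liver bud, also differed between libraries. Myl7, the atrial myosin light chain, measured 1.77 FPKM in Del(i9-13) replicate 1 and 1.39 FPKM in Hoxb13hd replicate 2, the 2 lowest of the E10.5 libraries, and 3.36 to 102 FPKM in the other 10. Over all 10 heart genes Hoxb13hd replicate 3, with 96 Alb counts, was the lowest E10.5 library in 5 and Hoxb13hd replicate 2 in 4, while Del(i9-13) replicate 1 was the lowest in 0. Wild type replicate 3 was the highest in all 10. At E9.5 Myl7 measured 20.1 FPKM in wild type replicate 3, the library with 118 Alb counts, and 1.86 to 4.55 FPKM in the other 5. The 10 heart genes together ran from 53.7 to 489 FPKM in E10.5 wild type, 47.5 to 158 in Del(i9-13), 61.0 to 87.0 in Del(i9-13):Hoxb13hd and 28.5 to 150 in Hoxb13hd. Of the defining markers of other tissues, the 8 nephric genes summed to 9.98 to 16.8 FPKM and the 11 gut epithelial genes to 107 to 153 FPKM over the 12 E10.5 libraries. At E9.5 the gut epithelial sum was 175, 187 and 217 FPKM in wild type and 209, 287 and 352 FPKM in Del(i9-13), highest in the same library as the yolk sac list. Krt8, an epithelial keratin of that list, measured 50.3 to 58.7 FPKM in E9.5 wild type and 56.8, 85.0 and 121 FPKM in Del(i9-13). The 8 trophoblast and decidua genes summed to 2.76 to 6.37 FPKM over the E10.5 libraries, with Prl3c1 at 0 in all 12 libraries. The part of yolk sac, liver, heart or other tissue content in the differences between groups was not tested.

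The genes whose pattern was most like Alb and most like Amn were ranked by Pearson's r of log2 CPM, among genes with a mean of at least 1 CPM, as a description of libraries that share their dissection and depth. Over the 12 E10.5 libraries those nearest Alb were Serpina6 (r = 0.99), Paqr9 (0.99), Itih2 (0.95), Gdf2 (0.94) and Gulo (0.92). Without Del(i9-13) replicate 1 and Hoxb13hd replicate 2 the same genes had r of 0.99, 0.91, 0.95, 0.84 and 0.92. Those nearest Amn were 4933402E13Rik (r = 0.99), Pdzk1 (0.99), Cubn (0.99), Apob (0.98) and Folr1 (0.98), and without Del(i9-13) replicate 1 and wild type replicate 1 they had 0.91, 0.90, 0.95, 0.88 and 0.93. Over the 6 E9.5 libraries Cd9, Ephx2, Pdzk1, Vamp8 and Slc25a53 were nearest Amn, with r of 0.99 to 1.00, and Kctd13, Rnf181, Kifc1, Rab38 and Zfpl1 nearest Alb, with r of 0.97 to 0.98, where 2 of the 6 libraries have no Alb count.

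Among the members themselves at E10.5, Apoa4 was nearest to Amn (r = 0.97, and 0.90 without Del(i9-13) replicate 1 and wild type replicate 1), followed by Apoa1 (0.91, and 0.49 without them) and Ttr (0.83, and 0.24 without them). Serpinc1 was nearest to Alb (r = 0.69). Without Del(i9-13) replicate 1 and Hoxb13hd replicate 2, r with Alb was 0.96 for Serpind1, 0.92 for Plg, 0.91 for Trf, 0.89 for Serpinc1 and 0.85 for Afp, against 0.50 for Apoa1, 0.52 for Ttr, 0.02 for Apoa4 and −0.06 for Amn. With all 12 libraries r of Afp with Alb was 0.26, so the low value rested on those 2 libraries.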

How the data were processed

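Headless mouse embryos were profiled by RNA-seq in 18 libraries, 6 groups of 3, grouped by the labels. Per the submitters' processing notes, cutadapt 1.18, STAR 2.7.10a and Cufflinks 2.2.1 were used with mm10. The counting program, its strand setting and the annotation are, in the sources used here, not given. The authors deposited 1 table of gene counts, not normalized, and 1 table of FPKM, which the file headers pair with gene symbols, and 0 columns of other samples were left unused. FPKM, which are per length, were used for levels and ratios. Counts were tested with edgeR 4.0.16 in R 4.3.3 (quasi-likelihood test, robust, TMM scaling, filterByExpr at a minimum count of 10 and total of 15, Benjamini-Hochberg adjustment over all genes tested), in 1 fit per stage and 1 over both stages for the stage interaction. All 10 genes passed the filter at both stages. DESeq2 1.42.0, limma 3.58.1 on log2(FPKM + 0.1) or log2(FPKM + 1), other scalings and filters, a replicate block, only the groups compared and leaving out each library were alternatives. Except where stated, limma tested genes with at least 1 FPKM in 3 libraries of the fit. This left out Alb, Amn, Plg, Serpinc1 and Serpind1 at E9.5, Amn and Apoa4 at E10.5, and Plg in the stage interaction. The fitting code was checked on simulated counts with the spread typical of genes at each level, which does not cover genes as variable as these 10. Depth was 19333138 to 35934843 counts per library, and intervals cover counting error only. The 10 genes and the marker lists were chosen with earlier results of these data known. All 10 genes are named, and beside them the 5 genes per stage most like Alb and Amn by Pearson's r. Other genes named are list members shown as examples after their values were seen.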

Additional observations from a re-analysis of the deposited data

How the results depend on the processing

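Of 827 fitted log2 values under the alternatives, 761 kept direction and side of the threshold and 24 reversed. Members called moved from 0 to 3 (E9.5 deletion), 0 to 5 (Hoxb13hd against wild type) and 0 to 1 (interaction of deletion and Hoxb13hd) with DESeq2. They moved from 0 to 1 with limma on log2(FPKM + 1) (Hoxb13hd against wild type), and from 3 to 1 with no filter on low counts and to 0 with limma on log2(FPKM + 0.1) without filter (Del(i9-13):Hoxb13hd against Hoxb13hd). Without both libraries with 2 Alb counts, chosen after seeing the data, there were 1 (E10.5 deletion), 2 (Hoxb13hd), 4 (Del(i9-13):Hoxb13hd against Hoxb13hd) and 2 (interaction) members. Alb, whose counts set that choice, was among them in all but the E10.5 deletion. Apoa4 in Del(i9-13):Hoxb13hd against Hoxb13hd then turned to 0.77, and in the E10.5 deletion Alb turned to 0.25, Apoa1 to −0.98, Apoa4 to −2.51, Ttr to −0.58, Amn to −1.53 and Plg to −0.31. Leaving out 1 library gave 0 to 3 members called in Del(i9-13):Hoxb13hd against Hoxb13hd, 0 to 1 in the interaction and 0 in the other 5 comparisons.

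Leaving out 1 library at a time, the log2 values that could turn ran from −2.90 to 2.23 (Alb), −0.33 to 1.09 (Serpinc1) and −0.72 to 2.38 (Serpind1) for the deletion at E9.5, the ends lying without wild type replicate 3 or Del(i9-13) replicate 3. At E10.5 they ran from −0.77 to 0.25 (Alb), −0.98 to 2.71 (Apoa1), −2.51 to 4.06 (Apoa4), −0.58 to 2.26 (Ttr), −1.53 to 2.80 (Amn) and −0.31 to 0.68 (Plg) for the deletion. For Del(i9-13):Hoxb13hd against wild type they ran from −0.25 to 0.60 (Afp, −0.0039 with only the 2 groups) and −0.96 to 0.12 (Ttr), and against Hoxb13hd from −2.71 to 0.77 (Apoa4). The cause was not tested.

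The replicate numbers share only a number: deviations of same-numbered libraries correlated between −0.23 and 0.16, over 0.1 in 1 of 3 pairs at E9.5 and 3 of 18 at E10.5. With a replicate block, members called were 1 at E9.5 (Afp, log2 2.81), where 79 of 16041 genes were called. They were 3 in Del(i9-13):Hoxb13hd against Hoxb13hd, where 223 of 17202 genes were called, and 0 elsewhere. Genes called over the alternatives ran from 20 to 537 (main 58) at E9.5, and at E10.5 from 40 to 285 (84) for the deletion, 14 to 326 (69) for Del(i9-13):Hoxb13hd and 51 to 1240 (517) for Hoxb13hd against wild type, 36 to 658 (165) for Del(i9-13):Hoxb13hd against Hoxb13hd, 1 to 88 (8) for the stage and 40 to 297 (90) for the Hoxb13hd interaction. Counts under 40 in a library, as for Amn, Plg or Serpind1, limit single values by counting error.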
